A study of Mus musculus with 32 samples.

Results

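The aminoacyl-tRNA synthetases and the scaffold proteins of their complex form a gene family that was chosen by gene name, with no measured value admitting or dropping a member. It held 39 of the 23517 genes in the mouse count table: 20 cytosolic enzymes, 3 scaffold proteins (Aimp1, Aimp2 and Eef1e1) and 16 mitochondrial enzymes, whose symbols end in 2. All 39 were found, 1 of them, Mars, as Mars1. The family and both of its comparisons were chosen after log2 fold changes of these data between the sets and with Bch were known, so the counts of members past a threshold are a description of these mice.

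Aminoacyl-tRNA synthetases load amino acids onto their transfer RNAs, the step that supplies the ribosome. Mammalian cells keep one set of enzymes for the cytosol and another for the mitochondrion, both encoded in the nucleus and made on cytosolic ribosomes. Several cytosolic enzymes are held together with scaffold proteins in the multisynthetase complex. Many cytosolic synthetase genes are known targets of ATF4, a transcription factor that is made when amino acids run short or protein folding is disturbed, and the fast-dividing progenitor cells of the colonic crypt have a high demand for protein synthesis.

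RNA was measured in Lgr5+ progenitor cells, sorted from colonoids, which are epithelial organoids grown from crypts of the proximal colon in Matrigel with L-WRN medium. All 8 mice carried Lgr5-EGFP-IRES-CreERT2, in which the Lgr5 locus drives EGFP and an inducible Cre, and the labels gave their ages only as matched. Each mouse gave untreated cells and cells from colonoids given 250 nM bethanechol (Bch), an agonist of muscarinic acetylcholine receptors, for 4 days, and each was read as 2 technical replicates that were added here, which left 16 sums. The mice formed 2 sets of 4. BR1-BR4 were labelled male, with sorted Lgr5+ cells as the source and an RNeasy Plus Micro extraction. BR7-BR10 carried no sex label, had colonic organoids as the labelled source and an RNeasy Mini extraction, while the series counts 4 female and 4 male mice. Sex, labelled source and kit therefore cannot be told apart in any difference between the sets. Xist, the RNA of the inactive X chromosome, was at 44.7 to 162 counts per 1000000 counts (CPM) in the 8 sums of BR7-BR10 and at 11.9 to 24.5 in those of BR1-BR4. The Y-linked Eif2s3y was at 2.53 to 8.64 CPM and 37.2 to 64.1 CPM, respectively.

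The values are counts of unique molecular identifiers (UMIs), which mark single captured transcript ends, so they were scaled to the library as CPM with TMM factors and not divided by transcript length. The sums held 557512 (untreated BR3) to 4050342 UMIs (Bch-treated BR8), and 3 UMIs, the most that a count of 0 allows, correspond to 5.38 and 0.741 CPM in these sums, for counting error only. Sorted cells numbered 3000 for most sums, 2361 for untreated BR3 and 13114 for untreated BR1. Of the markers of other cells, the summed levels of the immune, fibroblast and endothelial lists were at most 2.41 CPM in any sum, and that of the tuft list at most 13.6 CPM. Only 3 of 5 immune, 1 of 5 fibroblast and 1 of 3 endothelial markers had a row in the count table. The stem and progenitor list summed to 1740 to 2188 CPM in the untreated sums, and Lgr5 itself averaged 19.4 CPM in untreated BR7-BR10 and 34.5 CPM in untreated BR1-BR4. In these bulk samples, fewer cells of a type and less RNA per cell cannot be told apart.

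Every cytosolic enzyme and scaffold protein had a UMI in each of the 16 sums, with mean levels from 31.0 CPM for Iars, the isoleucine enzyme, to 338 CPM for Nars, the asparagine enzyme. The scaffold proteins were at 132 CPM (Eef1e1), 170.1 CPM (Aimp1) and 178 CPM (Aimp2). Among mitochondrial enzymes, Lars2, which loads leucine, had a mean level of 241 CPM and the next, Rars2, 58.9 CPM. The alanine enzyme Aars2 had 3.47 CPM, from 117 UMIs in all, with 0 UMIs in 1 sum, and Wars2 had 6.10 CPM. The lowest sums of Wars2, Vars2, Pars2, Hars2 and Nars2 held 1, 3, 4, 5 and 6 UMIs. The sources used here do not say at which step the technical replicates were split, and the totals of the second were 107% to 111% of those of the first. The median absolute log2 difference between them was 0.157 for cytosolic, 0.195 for scaffold and 0.244 for mitochondrial members.

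The summed level of the cytosolic enzymes was higher in BR1-BR4 than in BR7-BR10, whereas the summed levels of the mitochondrial enzymes overlapped between the sets. Added over the 20 cytosolic enzymes, untreated cells had 1608 ± 174 CPM (SD, n = 4; 1402 to 1817) in BR7-BR10 and 2393 ± 206 CPM (2164 to 2643) in BR1-BR4, and the sets did not overlap. With Bch the sums were 1640 ± 169.6 and 2405 ± 99.4 CPM, again without overlap. The 16 mitochondrial enzymes added up to 555 ± 64.1 and 569.9 ± 51.8 CPM in untreated cells and to 580.5 ± 83.8 and 568 ± 9.51 CPM with Bch, with the sets overlapping in both. The scaffold proteins were at 462 ± 18.6 and 521 ± 68.0 CPM untreated, and at 418 ± 18.7 and 518 ± 19.2 CPM with Bch, where the sets did not overlap. Mitochondrial enzymes thus made up 21.2 ± 2.99% of the family's level in untreated BR7-BR10 and 16.4 ± 1.20% in untreated BR1-BR4, and without Lars2 13.7% and 10.3%.

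**Figure D1:**
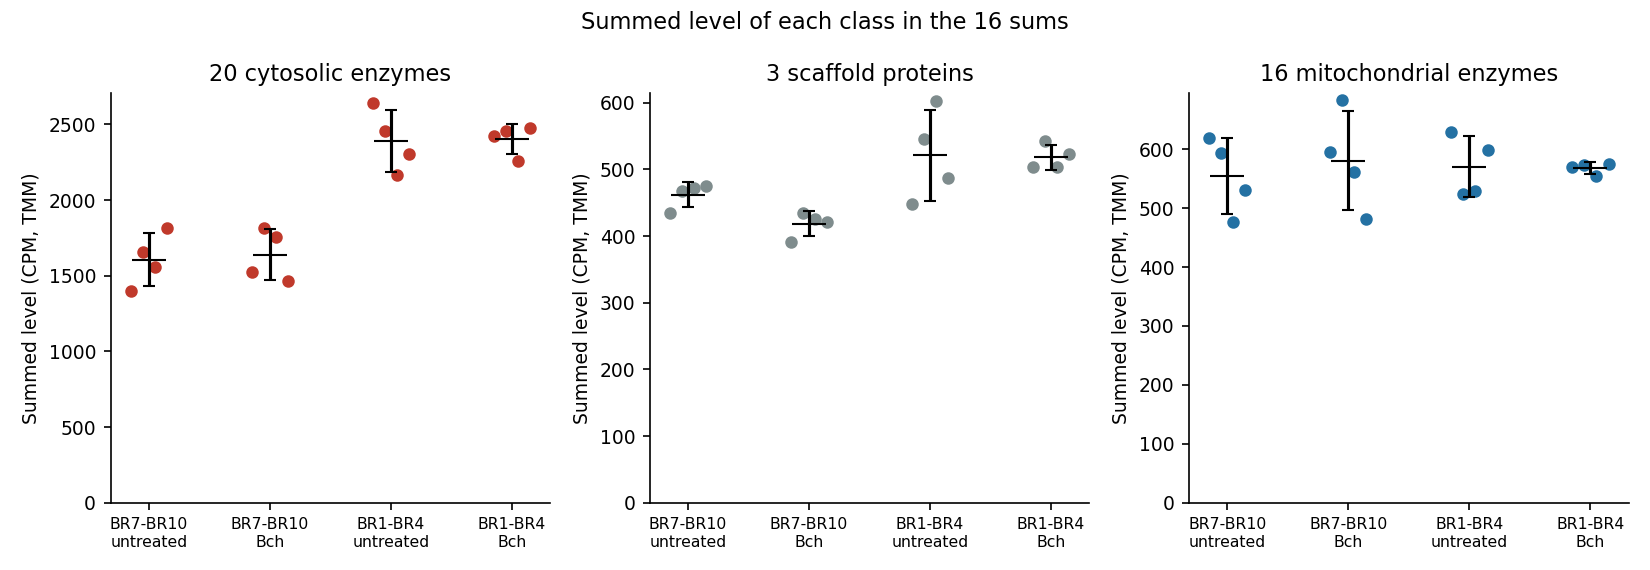
Summed level of the cytosolic enzymes, the scaffold proteins and the mitochondrial enzymes (CPM with TMM factors, each axis from 0) in the 4 groups of 4 sums. Points are mice and bars the mean ± SD. The untreated cytosolic sums reach 1817 CPM at most in BR7-BR10 and are 2164 CPM or more in BR1-BR4, and the mitochondrial sums overlap.

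Gene by gene, 19 of the 20 cytosolic enzymes had a positive log2 fold change between untreated BR1-BR4 and BR7-BR10, with a median of 0.58. Of the 9159 genes tested, 52.1% were positive and the median was 0.02. The threshold, an adjusted p of 0.05 by edgeR's quasi-likelihood test, was passed by 8 cytosolic enzymes, all higher in BR1-BR4, while 1.64% of all genes passed it in either direction and 0.666% as higher. No member was past it as lower, as 0.972% of all genes were. In 12 of the 20 cytosolic enzymes all 4 untreated sums of BR1-BR4 lay above all 4 of BR7-BR10, a separation that 3.43% of all genes showed. So did 2 of the 15 mitochondrial enzymes tested, Rars2 and Tars2, and 1 of the 3 scaffold proteins, Aimp2. In 0 members all 4 lay below, as they did for 4.55% of all genes. The 8 were Nars, Rars, Sars, Lars, Gars, Tars, Eprs and Aars. With every sum thinned to the depth of the shallowest, 1 of them, Nars, stayed past the threshold. Eprs and Aars fell short of it without BR7 or without BR9, Eprs also without BR2, and Aars without BR1 or BR4.

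Nars had the highest level of the family. Its untreated levels were 199.6, 239, 239.9 and 253 CPM in BR7, BR8, BR9 and BR10 and 538, 458, 359 and 391.8 CPM in BR1, BR2, BR3 and BR4, the order used for all values below. With Bch they were 272, 284, 226 and 216 CPM in BR7-BR10 and 448, 416, 389 and 479 CPM in BR1-BR4. All 8 sums of BR1-BR4 were above all 8 of BR7-BR10, and the untreated log2 fold change was 0.92 ± 0.12 (SE). Rars, the arginine enzyme of the complex, had untreated levels of 93.5, 127, 115 and 129 CPM in BR7-BR10 and 226, 195, 191 and 190.1 CPM in BR1-BR4. Its levels with Bch were 107, 117, 118 and 109 CPM in BR7-BR10 and 205, 217, 196 and 243 CPM in BR1-BR4. On GRCm38 (GENCODE M21 annotation) Rars lies at chr11:35808381-35834506 on the minus strand and Nars on chromosome 18. The sets were apart under both treatments for Rars too, with an untreated log2 fold change of 0.80 ± 0.13.

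Sars (chr3:108424865-108445209), which loads serine and also serves the selenocysteine tRNA, was at 224 ± 23.0 CPM in untreated BR7-BR10 and 352 ± 19.7 CPM in BR1-BR4 (SD, n = 4), a log2 fold change of 0.67 ± 0.12. Lars, the leucine enzyme, was at 40.02 ± 10.8 and 81.2 ± 9.05 CPM, with the largest log2 fold change of the family, 1.03 ± 0.18. Eprs (chr1:185363044-185428360), a fused enzyme for glutamate and proline, was at 79.2 ± 14.9 and 124 ± 6.83 CPM and had a log2 fold change of 0.66 ± 0.15. With Nars and Rars, these were the 5 cytosolic enzymes in which all 8 sums of BR1-BR4 exceeded all 8 of BR7-BR10, against 0.447% of the 10280 genes tested over all sums. In 0 members all 8 lay below, against 0.778% of genes. No scaffold protein and no mitochondrial enzyme showed this separation.

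Gars (chr6:55038007-55079500), the glycine enzyme that serves both compartments from a single gene, was at 78.2 ± 7.31 CPM in untreated BR7-BR10 and 133 ± 30.1 CPM in BR1-BR4, and its log2 fold change was 0.80 ± 0.15. Tars (chr15:11382301-11399665), the threonine enzyme, was at 50.3 ± 5.99 and 85.5 ± 15.6 CPM, with 0.80 ± 0.17 on the log2 scale. Both genes had untreated sets that did not overlap. Aars (chr8:111033144-111057664), the alanine enzyme, had untreated levels of 20.7, 42.2, 19.3 and 35.8 CPM in BR7-BR10 and 64.6, 51.7, 40.7 and 63.0 CPM in BR1-BR4, where BR3 was below BR8. Its levels with Bch were 35.2, 39.7, 45.8 and 21.5 CPM in BR7-BR10 and 37.9, 42.1, 47.6 and 40.2 CPM in BR1-BR4. The log2 fold change between the sets was 0.94 ± 0.22 untreated and 0.23 ± 0.20 with Bch, past the threshold in the former alone, and the difference between these is given with the Bch comparisons. Of the windows near its annotated ends, 50.0% are shared with Exosc6 on the same strand. Exosc6 has no row of its own in the count table, so the counts of Aars are uncertain.

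**Figure D2:**
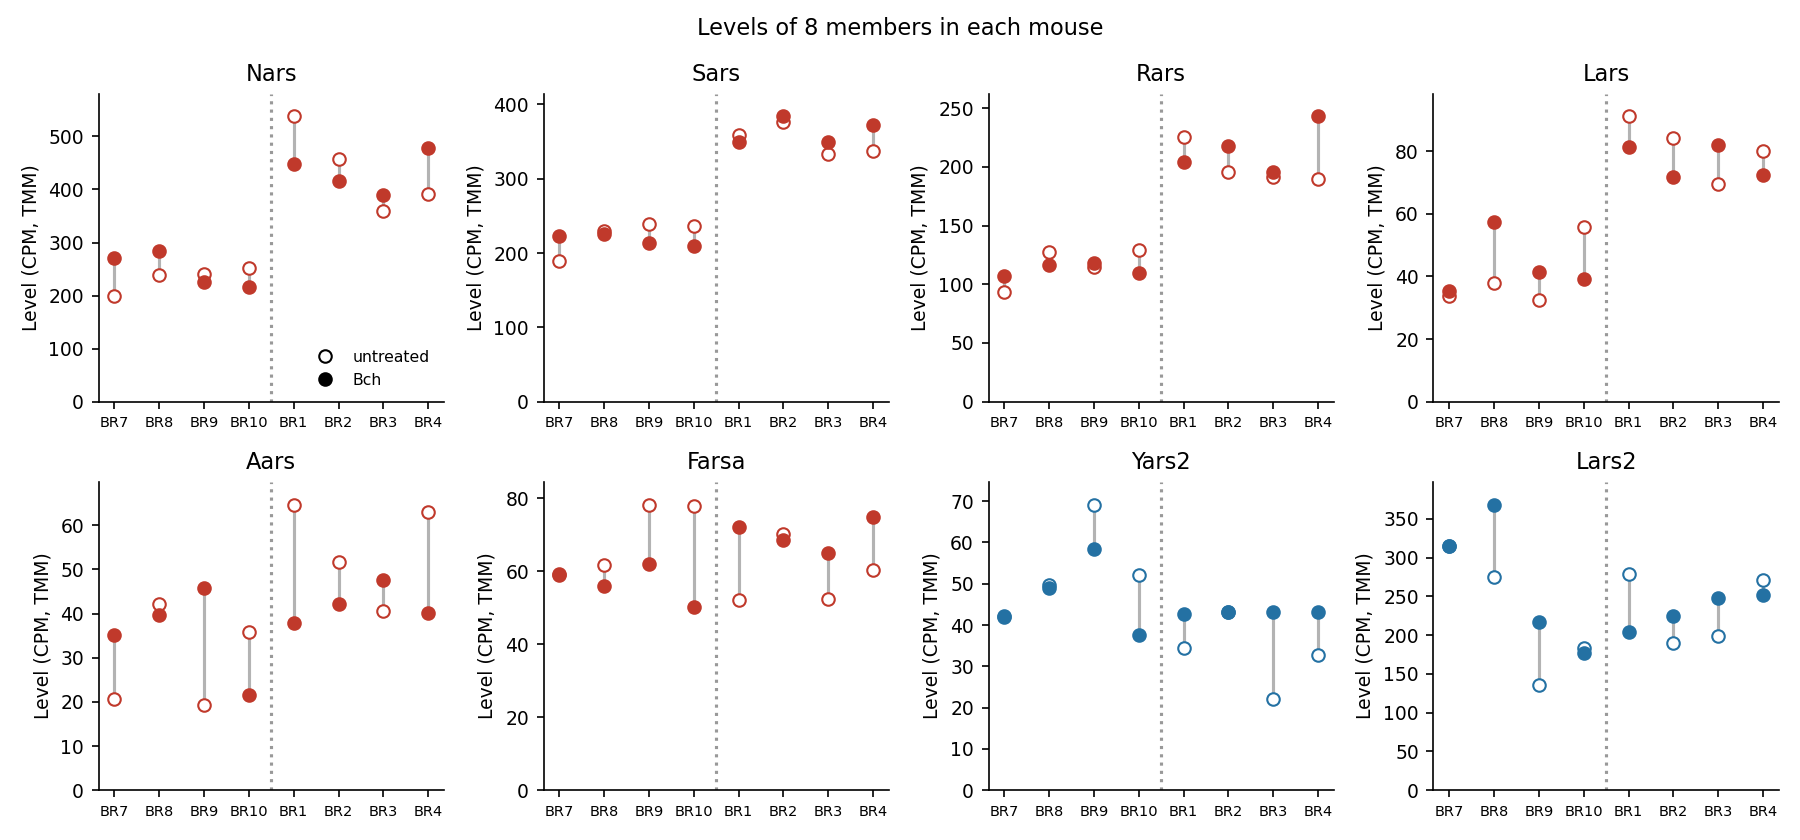
Levels of 8 members (CPM with TMM factors, each axis from 0) in every mouse, untreated (open) and with Bch (filled), with a line joining the sums of a mouse and a dotted line between the sets. For Nars, Sars, Rars and Lars all sums of BR1-BR4 lie above all sums of BR7-BR10, and for Aars, Farsa, Yars2 and Lars2 the sets overlap.

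The other 12 cytosolic enzymes did not pass the threshold. Cars (0.70 ± 0.21), Mars1 (0.61 ± 0.21), Wars (0.55 ± 0.15), Vars (0.55 ± 0.16), Yars (0.53 ± 0.17), Iars (0.47 ± 0.21) and Qars (0.39 ± 0.16), for cysteine, methionine, tryptophan, valine, tyrosine, isoleucine and glutamine, had an unadjusted p under 0.05. In all, 15 of the 20 cytosolic enzymes did, as did 2 of 15 mitochondrial enzymes tested (Rars2 and Yars2, of opposite sign), 0 of 3 scaffold proteins and 12.7% of all genes. The log2 fold changes were nearer to 0 for Dars (0.21 ± 0.15), Kars (0.08 ± 0.15), Hars (0.01 ± 0.17) and the 2 subunits of the phenylalanine enzyme, Farsb (0.19 ± 0.15) and Farsa (-0.22 ± 0.17). Farsa was the single cytosolic member with a negative value.

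**Figure D3:**
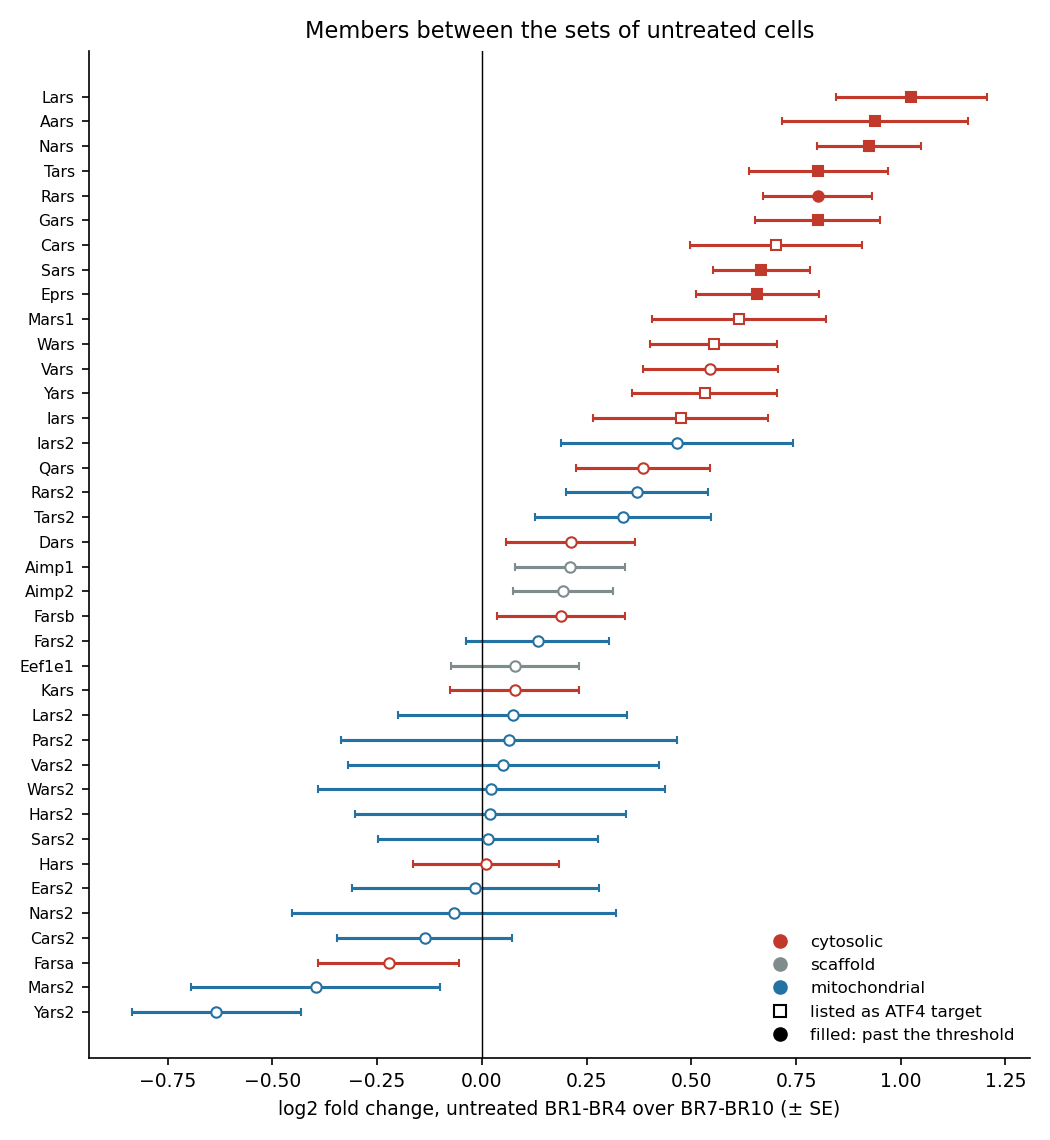
Log2 fold change (± SE) of untreated BR1-BR4 over untreated BR7-BR10 for the 38 members tested, by class. Squares mark cytosolic enzymes listed as ATF4 targets and filled symbols those past the threshold. The 12 listed enzymes lie between 0.47 and 1.03, and the mitochondrial enzymes between -0.63 and 0.47.

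The 8 enzymes held in the multisynthetase complex had a median log2 fold change of 0.54 with 3 past the threshold, and the 12 outside it a median of 0.61 with 5 past it. The 3 scaffold proteins of the complex had a median of 0.19 and 0 past it. The 12 enzymes listed as known ATF4 targets had a median of 0.68, from 0.47 to 1.03. All 12 were higher in BR1-BR4, and 7 passed the threshold. Of all genes tested, 52.1% were positive and 1.64% passed it in either direction. The 8 other cytosolic enzymes had a median of 0.20, from -0.22 to 0.80, and 1, Rars, passed it. The untreated sums of BR1-BR4 all lay above those of BR7-BR10 for 9 of the 12 and for 3 of the 8, against 3.43% of all genes. These lists were drawn up with earlier results of these data known, so the split describes the same mice. No test was made between these lists.

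The promoters of the family were searched for the letters of the C/EBP-ATF response element, the site through which ATF4 is known to act. For each gene that held them, 1 stretch is shown. RefSeq promoters of GRCm38.p6, from 250 bases before to 50 after a start, were matched for 30 of the 39 members. Cytosolic Cars, Hars, Lars, Nars, Rars, Vars and Wars and mitochondrial Hars2 and Pars2 had no matched promoter and were not searched. The core, TGATGNAA on either strand, was in 5 of 13 cytosolic promoters, in 0 of 3 scaffold and in 0 of 14 mitochondrial promoters, while 4.51% of 27025 genes held it. At that share, 0 of 3 and 0 of 14 do not set the scaffold and mitochondrial promoters apart from those of other genes. The 5 genes, Aars, Gars, Iars, Tars and Yars, all belonged to the ATF4 list, of which 8 had a promoter. Each stretch is given along the strand of its gene, 5′ to 3′, with the core in capitals, which reads as its reverse complement in all but Yars.
Aars, chr8:111033841-111033868 (plus strand): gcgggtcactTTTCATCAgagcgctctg
Gars, chr6:55037961-55037988 (plus strand): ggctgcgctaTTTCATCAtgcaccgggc
Iars, chr13:49682127-49682154 (plus strand): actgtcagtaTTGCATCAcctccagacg
Tars, chr15:11399656-11399683 (minus strand): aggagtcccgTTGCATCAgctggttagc
Yars, chr4:129189896-129189923 (plus strand): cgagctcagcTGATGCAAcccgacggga
The cores shown began 9 bases after the start in Aars, 30 before it in Gars, 7 after it in Iars, 15 before it in Tars and 3 after it in Yars. A promoter may hold a core besides the 1 shown. The untreated log2 fold changes of the 5 between the sets were 0.47 to 0.94 with a median of 0.80, and those of the 8 cytosolic enzymes with a promoter and no core were -0.22 to 0.67 with a median of 0.30. Cytosolic enzymes without a matched promoter are in neither group. These had 1.03 (Lars), 0.92 (Nars), 0.80 (Rars), 0.70 (Cars), 0.55 (Wars), 0.55 (Vars) and 0.01 (Hars). The E-box CACGTG, which did not overlap a core, was in 4 of 13 cytosolic promoters (Aars, Farsb, Iars and Tars) and in 1 of 14 mitochondrial promoters (Ears2), against 8.09% of all genes. The 4 had a median of 0.64 and the 9 without it 0.53. Neither TGACGTCA nor CTCGCGAG was in any of the 30 members' promoters, and they were in 2.03% and 1.04% of all genes' promoters. A match describes the letters of these windows.

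None of the 15 mitochondrial enzymes tested passed the threshold between the untreated sets, and Aars2 was too low to be tested. Their median log2 fold change was 0.02, with 10 positive. Yars2, the tyrosine enzyme, had the value farthest from 0 among them, at -0.63 ± 0.20. Its untreated levels were 42.1, 49.8, 69.1 and 52.1 CPM in BR7-BR10 and 34.4, 43.1, 22.0 and 32.8 CPM in BR1-BR4, and with Bch 42.3, 48.9, 58.5 and 37.6 CPM in BR7-BR10 and 42.7, 43.3, 43.1 and 43.2 CPM in BR1-BR4. Only BR2 untreated, at 43.1 CPM, lay inside the range of untreated BR7-BR10. Rars2, the arginine enzyme, was at 49.0, 53.5, 57.9 and 54.3 CPM in BR7-BR10 and 73.0, 59.6, 84.7 and 63.0 CPM in BR1-BR4 untreated, where the sets did not overlap, with a log2 fold change of 0.37 ± 0.17. With Bch, Rars2 was at 67.4, 49.4, 53.5 and 46.5 CPM in BR7-BR10 and 51.7, 59.9, 57.1 and 61.5 CPM in BR1-BR4, and the sets overlapped.

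Lars2 varied more between mice than between sets. Its untreated levels were 314, 275, 136 and 183 CPM in BR7-BR10 and 279, 189.5, 198 and 271 CPM in BR1-BR4, and the log2 fold change was 0.07 ± 0.27. All 4 untreated levels of BR1-BR4 lay within the range of BR7-BR10, whose lowest was BR9 and highest BR7. For comparison, cytosolic Lars differed between the same sums by 1.03 ± 0.18. Of 14 pairs of a cytosolic and a mitochondrial enzyme for the same amino acid that were tested, leaving out phenylalanine with its 2 cytosolic subunits and with Eprs in 2 pairs, against Ears2 and Pars2, 13 had the larger value in the cytosolic enzyme, as in Nars (0.92 ± 0.12) and Nars2 (-0.07 ± 0.39), Cars (0.70 ± 0.21) and Cars2 (-0.14 ± 0.21), and Sars (0.67 ± 0.12) and Sars2 (0.01 ± 0.26). The pairs differed in how far apart they were, and Iars (0.47 ± 0.21) and Iars2 (0.47 ± 0.28), counted among the 13, were nearly level. The differences within pairs were not tested. The standard errors were 0.17 to 0.41 for mitochondrial and 0.12 to 0.22 for cytosolic enzymes. Hars and Hars2, the exception, whose starts are 197 bases apart on opposite strands, were both near 0, at 0.01 ± 0.17 and 0.02 ± 0.32.

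Among the scaffold proteins, Aimp2 was at 172, 167, 178 and 185 CPM in untreated BR7-BR10 and 187, 202, 220.3 and 192 CPM in BR1-BR4. The sets did not overlap for Aimp2, with a log2 fold change of 0.19 ± 0.12. Eef1e1 was at 107, 147, 141 and 119.7 CPM in BR7-BR10 and 102, 134, 175 and 138 CPM in BR1-BR4, overlapping, with 0.08 ± 0.15. Aimp1 had 0.21 ± 0.13.

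In the Bch-treated sums of the same mice, 9639 genes were tested, 2.06% were past the threshold, and 6 cytosolic enzymes were among them: Gars, Lars, Nars, Rars, Sars and Yars. The cytosolic median was 0.44 with 18 of 20 positive, the scaffold median 0.31 and the mitochondrial median 0.03, and no scaffold or mitochondrial member passed. The median over all genes tested was 0.0066. In 11 of 20 cytosolic enzymes all 4 Bch-treated sums of BR1-BR4 lay above all 4 of BR7-BR10, as did those of 2 of 3 scaffold proteins, Aimp1 and Aimp2, and of 0 of 15 mitochondrial enzymes. In 0 members all 4 lay below. Both separations were counted over the 9159 genes tested between the untreated sets, of which 4.06% lay above and 3.66% below. With both treatments of a mouse added, 11 of 20 cytosolic enzymes, 0 of 3 scaffold proteins and 0 of 16 mitochondrial enzymes passed the threshold, against 4.29% of 11336 genes. Yars was at 0.66 ± 0.16 with Bch and at 0.53 ± 0.17 without it. Tars (0.39 ± 0.16), Eprs (0.44 ± 0.14) and Aars were not past the threshold with Bch. Because the treated and untreated sums came from the same 8 mice, the treated comparison does not add mice.

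Marker lists of cell types moved in part with the sets. In the untreated sums 2 of 8 stem and progenitor markers were past the threshold as higher in BR1-BR4, Ascl2 (0.51 ± 0.13) and Axin2 (0.84 ± 0.22), while Lgr5 (0.87 ± 0.24) and Sox9 (0.55 ± 0.15) were not past it. Their list summed to 1764 to 2188 CPM in BR7-BR10 and to 1740 to 2185 CPM in BR1-BR4, of which Epcam, found in all epithelial cells, made up 1189.8 and 1054 CPM on average, at -0.16 ± 0.12. Of the colonocyte list, 1 of 7 tested was past it as lower, the water channel Aqp8 (-1.81 ± 0.43), with list sums of 1561 to 2362 CPM and 1250.4 to 1879.9 CPM. None of the 7 goblet markers (2172 to 4770.2 and 2176 to 2703 CPM) or the 5 enteroendocrine markers tested (352 to 916 and 189 to 410.2 CPM) passed, and no listed marker of these 4 types was at 0 in every sum of a group. Of the 19 colonocyte, goblet and enteroendocrine markers tested, 18 had a negative log2 fold change, such as Guca2a (-0.73 ± 0.20), Agr2 (-0.63 ± 0.17) and Pyy (-1.07 ± 0.30), and Fcgbp was the exception (0.65 ± 0.26). The part of these markers in the difference of the cytosolic enzymes was not tested.

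Bethanechol moved no member of the family past the threshold, in either set or over all 8 mice. In BR7-BR10, 0 of 38 members tested passed, as did 0% of the 9515 genes tested. An unadjusted p under 0.05 was reached by 1 member and by 3.78% of all genes (360). In BR1-BR4, 0 of 39 passed, against 0.021% of 9509 genes, with 1 member and 7.71% (733) under an unadjusted 0.05. Over all 8 mice, 0 of 39 passed, against 0% of 10280 genes, with 2 members and 5.4% (555) under it. By DESeq2, 0 cytosolic and 0 mitochondrial enzymes passed in these comparisons as well. The median log2 fold changes of the cytosolic, scaffold and mitochondrial members were 0.02, -0.12 and -0.02 in BR7-BR10 and -0.01, 0.06 and 0.10 in BR1-BR4. The mitochondrial median in BR1-BR4 was -0.08 with thinned sums. With Bch, 12 of 20 cytosolic and 7 of 15 mitochondrial enzymes had a log2 fold change above 0 in BR7-BR10, against 49.7% of all genes, and 9 of 20 and 8 of 16 in BR1-BR4, against 50.2%.

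The direction of the cytosolic enzymes with Bch went by mouse. The median log2 ratio of Bch to untreated over the 20 enzymes was 0.04 in BR7, 0.12 in BR8, 0.29 in BR9 and -0.26 in BR10. In BR1, BR2, BR3 and BR4 it was -0.17, 0.05, 0.06 and 0.04. In BR9, 16 of the 20 were higher with Bch, and in BR10, 2 of the 20. The medians over all genes in the same mice were between -0.04 and 0.07. The mitochondrial medians were between -0.17 (BR10) and 0.10 (BR8), and 5 to 11 of the 16 enzymes were higher with Bch. No member went in the same direction in all 8 mice, against 0.554% of genes higher and 0.447% lower in all.

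**Figure D4:**
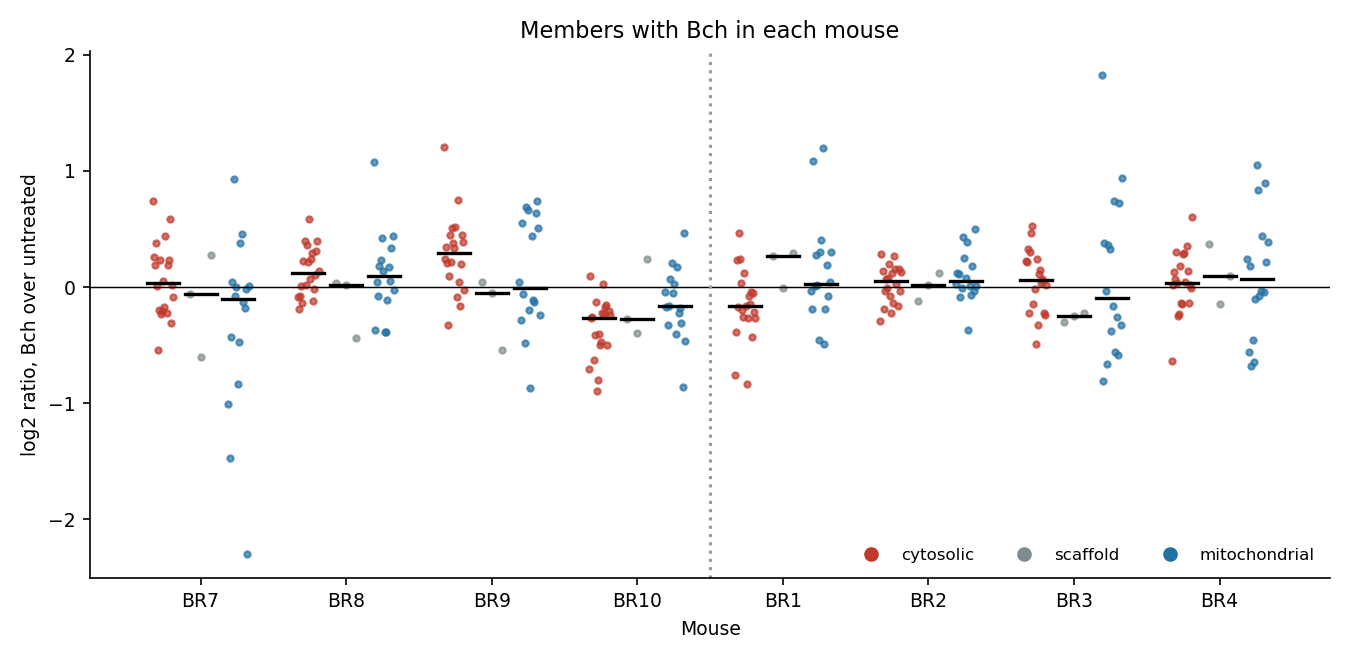
Log2 ratio of Bch over untreated in each mouse for every cytosolic, scaffold and mitochondrial member (points, prior count of 2), with the median of each class as a black bar and a dotted line between the sets. The cytosolic medians run from -0.26 in BR10 to 0.29 in BR9, and the mitochondrial points spread most.

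Cars2, the mitochondrial cysteine enzyme, had the lowest unadjusted p of the family in BR7-BR10. Its levels were 35.2, 30.9, 29.5 and 34.9 CPM untreated and 12.1, 23.6, 24.0 and 30.8 CPM with Bch, lower with Bch in each of the 4 mice. In BR1-BR4 they were 27.0, 25.8, 30.5 and 34.8 CPM and 23.5, 28.2, 17.0 and 23.3 CPM, lower in all but BR2. The log2 fold changes were -0.49 ± 0.22, -0.34 ± 0.22 and, over all 8 mice, -0.42 ± 0.16, none past the threshold. The last exons of Cars2 overlap those of Naxd on the other strand, with 60.2% of the 65-base windows near its annotated ends shared. Naxd was at 188 CPM and had -0.16 ± 0.08 over all 8 mice, and since the strand setting of the counting was not stated, reads of the pair cannot be told apart. Cars2 and Nars2 were the 2 mitochondrial enzymes lower in every mouse of BR7-BR10, against 5.76% of all genes, and 0 members were higher in every mouse of that set, against 5.58%.

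Lars2 was at 315, 368, 216 and 177 CPM with Bch in BR7-BR10, higher than untreated in BR8 and BR9 and by under 1 CPM in BR7, and at 204, 225, 248 and 252 CPM in BR1-BR4, higher in BR2 and BR3. The log2 fold changes were 0.26 ± 0.14 and -0.03 ± 0.11. Aimp2 was at 113, 169, 172 and 140.3 CPM with Bch in BR7-BR10 and 186, 204, 185 and 173 CPM in BR1-BR4. These gave -0.25 ± 0.14, -0.10 ± 0.10 and, over all 8 mice, -0.17 ± 0.08, the last under an unadjusted 0.05 and not past the threshold. Aimp2 shares 97.2% of its end windows with Eif2ak1 on the other strand, which was at 17.1 CPM.

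Among cytosolic enzymes, Qars, for glutamine, was at 55.2, 70.6, 51.3 and 69.4 CPM untreated and 47.3, 86.7, 87.1 and 70.6 CPM with Bch in BR7-BR10, and at 83.7, 78.2, 74.5 and 82.2 CPM untreated and 79.4, 94.2, 82.6 and 84.8 CPM with Bch in BR1-BR4. Qars had 0.16 ± 0.10 over all 8 mice, higher in BR8, BR9, BR10 and in BR2, BR3 and BR4. Hars, for histidine, was at 52.1, 59.2, 63.0 and 91.9 CPM untreated and 61.4, 60.0, 73.5 and 49.0 CPM with Bch in BR7-BR10. In BR1-BR4 Hars was at 74.8, 60.3, 61.0 and 70.1 CPM untreated and 64.96, 63.7, 55.1 and 59.5 CPM with Bch, and over all 8 mice it had -0.14 ± 0.11. Neither gene was past the threshold.

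In BR1-BR4, Dars and Farsb among cytosolic and Ears2 and Yars2 among mitochondrial enzymes were higher with Bch in every mouse, against 8.59% of all genes, and Wars was lower in every mouse, against 6.71%. Ears2, the glutamate enzyme, was at 12.6, 23.9, 18.6 and 12.6 CPM untreated and 27.7, 25.9, 24.5 and 14.4 CPM with Bch, a log2 fold change of 0.45 ± 0.25. In BR7-BR10 Ears2 was at 12.6, 15.1, 12.7 and 24.7 CPM untreated and 9.06, 15.7, 19.0 and 19.4 CPM with Bch, with -0.02 ± 0.28. The largest change of a cytosolic enzyme was that of Aars in BR1-BR4, at -0.44 ± 0.17, lower with Bch in BR1, BR2 and BR4.

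The difference of the Bch effect between the sets was tested directly, and 0 of 39 members and 0% of 10280 genes passed the threshold. An unadjusted p under 0.05 was reached by 4 members and by 4.39% of all genes (451), and DESeq2 called 0 cytosolic and 0 mitochondrial enzymes. The 4 were Aars (-0.65 ± 0.31, BR1-BR4 minus BR7-BR10), Farsa (0.54 ± 0.22), Yars2 (0.54 ± 0.25) and Nars2 (1.02 ± 0.48). The levels of Farsa were 59.0, 61.7, 78.3 and 78.1 CPM untreated and 59.4, 56.1, 62.1 and 50.3 CPM with Bch in BR7-BR10, a log2 fold change of -0.29 ± 0.17. In BR1-BR4 they were 52.1, 70.2, 52.5 and 60.5 CPM untreated and 72.2, 68.7, 65.1 and 74.9 CPM with Bch, with 0.25 ± 0.15, and the mice of neither set all went one way. Nars2, the asparagine enzyme, was at 8.79, 15.7, 6.61 and 6.48 CPM untreated and 6.04, 11.8, 3.17 and 4.65 CPM with Bch in BR7-BR10 and at 10.2, 5.96, 13.6 and 7.06 CPM untreated and 13.8, 8.11, 12.0 and 13.4 CPM with Bch in BR1-BR4. Its 294 UMIs over 16 sums gave -0.58 ± 0.37 and 0.44 ± 0.34. Eef1e1, the scaffold protein with the lowest p here, was at 129.8, 108, 96.1 and 142 CPM in BR7-BR10 and 126, 146, 149 and 147 CPM in BR1-BR4 with Bch, and its difference was 0.20 ± 0.20.

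Genes around the family were read from 2 further lists. Of 26 other genes of tRNA charging and delivery, such as tRNA editing enzymes and elongation factors, 24 were tested between the untreated sets. Of these 0 passed the threshold, 2 had an unadjusted p under 0.05, as 12.7% of all genes had, and the median log2 fold change was 0.04. In this list Eef1a1, the factor that brings loaded tRNAs to the ribosome, had 0.17 ± 0.23 between the sets. With Bch it had 0.08 ± 0.15 in BR7-BR10, 0.52 ± 0.11 in BR1-BR4 and 0.30 ± 0.12 over all 8 mice, and the difference between the sets was 0.44 ± 0.21. Trnt1, which adds the CCA end to tRNAs, had 0.47 ± 0.22 between the sets. With Bch it had 0.05 ± 0.21 in BR7-BR10, -0.60 ± 0.20 in BR1-BR4 and -0.27 ± 0.15 over all 8 mice, with a difference of -0.65 ± 0.29. None of these Bch values was past the threshold. Of 27 other genes of the ATF4 and amino acid response tested, all 27 were higher in untreated BR1-BR4, 15 passed the threshold and the median was 0.70, beside the 52.1% positive and 1.64% past the threshold among all genes, with Asns at 1.38 ± 0.14 and Atf4 itself at 0.64 ± 0.13. With Bch over all 8 mice, 0 of 27 passed, and the lowest p were those of Ddit4 (0.24 ± 0.09) and Phgdh (0.19 ± 0.09, from 0.01 ± 0.14 in BR7-BR10 and 0.36 ± 0.10 in BR1-BR4).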

How the data were processed

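The deposited values are UMI counts, 1 row a gene and 1 column a library, which the authors obtained with the Drop-seq pipeline (genome GRCm38, annotation GENCODE M25). The counts were not normalized, and the strand setting of the counting was not given in the sources used here. For 1520 genes, technical replicate 2 is blank while replicate 1 holds at most 12 UMIs, and the blanks were read as 0. Technical replicates were summed here, which left 16 sums of 557512 to 4050342 UMIs, so that a count of 0 allows up to 5.38 CPM in the shallowest (3 UMIs, the 95% limit for counting error).

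Genes passed edgeR's filterByExpr, and TMM and the robust quasi-likelihood test were used (R 4.3.3, edgeR 4.0.16), with an adjusted p of 0.05 by Benjamini-Hochberg over all genes tested as the threshold. Treatments were compared with the mouse as a block, and untreated sets without one. Standard errors are the log2 fold change over the square root of F. Alternatives were DESeq2 1.42.0, its size factors, no low-count filter, no block, single technical replicates, thinned sums and left-out mice. The steps were tested on simulated data. Promoter sequences are those of RefSeq (GRCm38.p6), gene positions those of GENCODE M21. Protein sequences were not analysed here, and 1 promoter stretch is not reported here.

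The pairing comes from the labels, in which 1 number stands for 1 mouse under both treatments. Deviations of these pairs from their group means correlated over 10280 genes with r of 0.0715, 0.151, 0.00341 and -0.0202 in BR7, BR8, BR9 and BR10, and of 0.245, 0.0329, 0.0617 and 0.0840 in BR1, BR2, BR3 and BR4.

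The members and all lists were chosen with earlier results of these data known. Every member was accounted for. Values by sum were given for the 2 cytosolic, 1 scaffold and 2 mitochondrial members with the smallest p in each of the 5 comparisons and for the member of each class with the highest level. Outside the family, the 3 genes per class with the most similar profile and the 2 genes of each other list with the smallest p over all mice were named, and Asns, Atf4 and Nupr1 were added after their values were seen.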

Additional observations from a re-analysis of the deposited data

Results flagged for a closer look

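Single sums stood apart from the other 3 of their group in 10 of 164 groups of 4 examined, each by a gap over Dixon's 95% limit for 4 samples, and chance gives about 1 in 20. In untreated BR7-BR10, Aimp1 was at 169.7 CPM in BR10 (152 to 155 in the others) and Hars2 at 6.91 CPM in BR7 (10.8 to 11.3). In Bch-treated BR7-BR10, Wars was at 62.5 CPM in BR10 (88.5 to 91.7) and Tars2 at 38.6 CPM in BR9 (22.0 to 23.6). In untreated BR1-BR4, Farsb was at 91.5 CPM in BR3 (138 to 141), Rars at 226 CPM in BR1 (190.1 to 195), and Fars2 at 59.6 CPM in BR2 (53.9 to 54.2). In Bch-treated BR1-BR4, Eef1e1 was at 126 CPM in BR1 (146 to 149), Aars2 at 2.50 CPM in BR3 (4.96 to 5.41), and Fars2 at 33.2 CPM in BR4 (53.1 to 56.0). The low Wars of BR10 belongs to the mouse in which 2 of 20 cytosolic enzymes were higher with Bch, and the high Rars of BR1 is the highest of 4 sums that all lie above BR7-BR10. No member went one way in every mouse of one set and the other way in every mouse of the other.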

How the results depend on the processing

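No value past the threshold changed sign under the alternatives run, while the mitochondrial medians with Bch, which had no test, did. Of 381 values for the comparisons as a whole under alternatives, 343 stayed close to the reported value and 38 moved, and of 491 for single members 461 stayed, 17 lost the threshold and 13 moved. The cause of these moves was not tested, other than fewer UMIs in thinned sums and fewer mice where one was left out. Without the low-count filter, 234 genes passed between the untreated sets (150 reported), 88 with Bch in BR1-BR4 (2), 15 with Bch over all mice (0) and 1 for the difference of the Bch effect (0). With sums thinned to the shallowest, 6 genes passed between the sets, 1 of them cytosolic (8), 0 with Bch in BR1-BR4 and 1 over all mice, and the mitochondrial median was -0.077 in BR1-BR4 (0.10) and -0.29 for the difference of the Bch effect (0.13). With technical replicate 2 alone these medians were -0.011 and -0.065, and with replicate 1 alone 9 genes passed in BR1-BR4 and 1 over all mice. DESeq2 called 14 genes in BR1-BR4, and both treatments added called 486 between the sets. Without the replicate block, 0 genes passed with Bch in BR1-BR4, and the block changed no call of a member. Leaving out each mouse in turn gave 74 to 210 genes and 6 to 8 cytosolic enzymes between the sets (93 without BR7, 97 without BR8, 92 without BR9, 74 without BR2, 97 without BR3 and 80 without BR4), 0 to 20 genes with Bch in BR1-BR4, 0 to 4 in BR7-BR10 and 0 to 1 over all mice. The mitochondrial median then ran from 0.0083 to 0.10 in BR1-BR4 and from -0.073 to 0.20 for the difference. Without Nars and Lars2, the enzymes with the highest level of their class, and with the scaffold proteins kept, the mitochondrial share of the family was 15.2% and 14.7% in untreated and Bch-treated BR7-BR10, and 11.9% in both groups of BR1-BR4. With DESeq2's size factors 56 genes were higher and 96 lower in BR1-BR4, and without ribosomal and mitochondrially encoded genes 72 and 110 (61 and 89 reported). Depth limits the lowest members most, since Aars2 had 117 UMIs in all and was not tested between the sets.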

Other observations

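The genes whose profile over the 16 sums was most like the mean of the 20 cytosolic enzymes, after the mean of each set was subtracted, were Lig1, a DNA ligase of replication (r = 0.886), Prpf19, a splicing factor (r = 0.878), and Hnrnpab, an RNA-binding protein (r = 0.869). For the 16 mitochondrial enzymes they were Cdk2ap1 (r = 0.874), Ube2c, a ubiquitin-conjugating enzyme of mitosis (r = 0.862), and Mcm3ap (r = 0.859). These correlations describe 16 sums of 8 mice that share libraries and depth. The mitochondrial mean profile was lowest in Bch-treated BR7 (-0.25) and untreated BR3 (-0.24), the sums with the fewest UMIs (1066102 and 557512). Measured against the mean of the other members of their class, the cytosolic enzymes had r from 0.112 (Farsa) and 0.136 (Wars) to 0.728 (Vars), while the mitochondrial enzymes ran from -0.688 (Rars2) to 0.624 (Wars2). The mean profiles of both classes correlated with r = 0.543 over the same sums. The 27 other genes of the ATF4 and amino acid response had a median r of 0.058 with the cytosolic profile, beside 0.102 for all 10280 genes, from -0.417 (Nupr1) to 0.564 (Asns), with Atf4 at 0.058.

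Neighbouring genes share sequence or starts with several members. Of the 65-base windows in the last 500 bases of annotated transcripts, 37.2% in Iars2, 12.0% in Farsb and at most 8.49% in Cars, Iars, Aimp1 and Mars1 were shared with another gene, beside the shares given for Aimp2, Cars2 and Aars. Mars1 overlaps Ddit3, an ATF4 response gene without a row in the count table, at its end with 0.766% of windows shared. Starts that face those of another gene within 1 kb were annotated for Kars with Terf2ip (75 bases apart), Yars with S100pbp (33), Rars2 with Orc3 (13) and Sars2 with Mrps12 (172), as well as for Aimp1 with Tbck (226), Aimp2 with Pms2 (117), Ears2 with Ubfd1 (88), Fars2 with Lyrm4 (114) and Wars with Wdr25 (543), beside the pair of Hars and Hars2.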
